A study of Rattus norvegicus with 20 samples.

Results

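The lung response to caecal ligation and puncture (CLP) was measured in rats whose right cervical vagus nerve was stimulated electrically in every case (VNS). The libraries were taken by their treatment labels: 5 of CLP+VNS and 5 of Sham+VNS, 10 of the 20 libraries in the series. Animals of the CLP+VNS group had the caecum ligated and punctured, and animals of the Sham+VNS group had the abdomen opened and the caecum handled without injury. Because both groups were stimulated, the comparison shows the operation on a background of stimulation and not the stimulation itself. The replicate numbers in the labels were 1, 3, 5, 8 and 11 for CLP+VNS and 1, 2, 3, 4 and 5 for Sham+VNS, and values below follow that order. The strain, sex and age of the animals, the settings of the stimulator and the time from surgery to tissue collection are not stated in the sources used here. The unstimulated groups CLP and Sham, also of 5 animals each, enter the estimate of the spread. Otherwise they appear only where the response is set against its unstimulated counterpart. Nothing in the labels says whether libraries were handled in batches, so a batch cannot be told apart from the animals or groups. The p-values from edgeR rest on the spread between libraries within groups, estimated over all 20 libraries.

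CLP spills gut bacteria into the abdomen, and the sepsis that follows injures the lung, which makes it a model of the acute respiratory distress syndrome. Bacterial products act on Toll-like receptors and NF-kappaB to induce tumour necrosis factor, interleukin-1 and chemokines, and interleukin-6 family cytokines act through STAT3 to induce acute phase proteins. The vagus nerve carries signals in both directions between the viscera and the brainstem, and acetylcholine acting on the nicotinic receptor encoded by Chrna7 restrains cytokine release by macrophages in the pathway known as the inflammatory reflex.

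The libraries held 13729654 to 14275406 counts in CLP+VNS and 13869123 to 14453188 in Sham+VNS. Levels are given as CPM, the counts of a gene per 1000000 counts of its library, with library sizes scaled by the trimmed mean of M-values. Log2 fold changes are CLP+VNS over Sham+VNS, with their standard error (SE), and adjusted p-values are from edgeR's quasi-likelihood test with Benjamini-Hochberg adjustment over all 14794 genes tested. Genes with an adjusted p under 0.05 are described as called. The tissue label held: surfactant protein C (Sftpc) and the alveolar type 1 marker Ager, which encodes the receptor for advanced glycation end products, were high in every library, at 1557 to 2223 CPM in CLP+VNS and 2335 to 2958 CPM in Sham+VNS for Ager.

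Of the 14794 genes tested, 4044 were called (27.3%), 2060 of them higher (13.9%) and 1984 lower (13.4%) in CLP+VNS. At least a 2-fold change was fitted for 366 of the higher and 321 of the lower genes. The 5 libraries of each group did not overlap for 2792 genes (18.9%), and 1354 of the genes called higher and 1275 of those called lower were among them. The median log2 fold change over all tested genes was -0.01. Principal component analysis of the 1000 genes that varied most placed 48.9% of their variance on the first axis, on which the CLP+VNS libraries lay between 17.9 and 31.5 and the Sham+VNS libraries between -30.5 and -19.2. CLP+VNS replicate 3 lay nearest to the Sham+VNS group and replicate 1 farthest from it.

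Adipose and cardiac muscle transcripts were uneven between libraries. Adipoq, the adipocyte hormone adiponectin, had 0.0746, 1.29, 0.216, 0.0713 and 0.0702 CPM in CLP+VNS and 0.0703, 96.3, 0, 16.2 and 0.141 CPM in Sham+VNS, so that Sham+VNS replicates 2 and 4 stood above the others. The summed level of 8 cardiac muscle genes was 34.2 CPM in CLP+VNS replicate 3, against 4.10 to 6.27 CPM in the other CLP+VNS libraries and 7.85 to 12.9 CPM in Sham+VNS. Without those 3 libraries, an alternative added after the data were seen, 2992 genes were called, 1523 higher and 1469 lower. Mesothelial transcripts differed between the groups themselves. The summed level of 8 mesothelial genes was 327 to 517 CPM in CLP+VNS and 578 to 724 CPM in Sham+VNS. Of the 7 tested, 3 were called lower and none higher, 42.9% against 13.4% of all tested genes. The source of the adipose, cardiac and mesothelial transcripts and their part in single results were not tested.

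**Figure D1:**
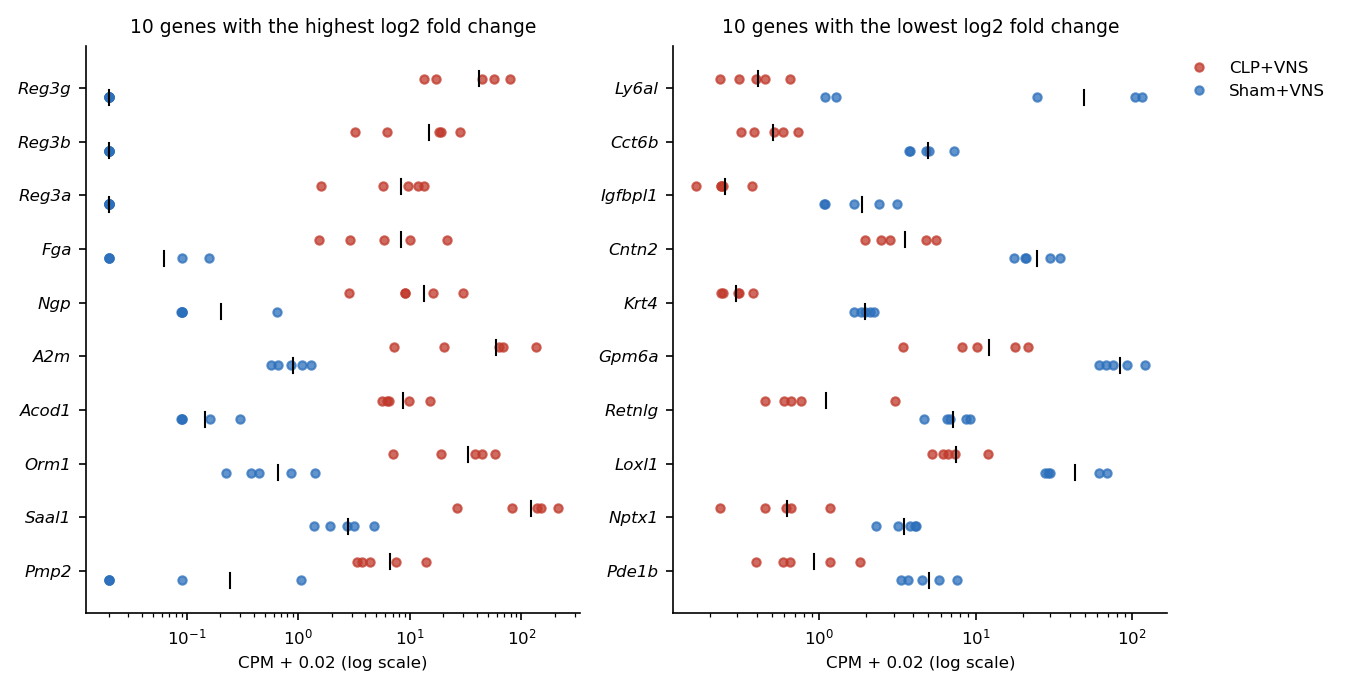
CPM plus 0.02 on a log axis in each of the 5 CLP+VNS (red) and 5 Sham+VNS (blue) libraries, with a black bar at the group mean, for the 10 genes with the highest and the 10 with the lowest log2 fold change among called genes that averaged at least 1 CPM and did not overlap between groups. The 3 Reg3 genes are at 0 in every Sham+VNS library, and Ly6al ranges from 1.07 to 117 CPM within Sham+VNS.

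Secreted lectins and acute phase proteins were among the largest fold changes. So were the neutrophil gene Ngp, the macrophage enzyme gene Acod1 and the fatty acid-binding gene Pmp2, at 6.13, 6.01 and 4.82 on the log2 scale. Reg3g, a C-type lectin that kills Gram-positive bacteria, had 44.0, 13.5, 78.4, 56.2 and 17.0 CPM in CLP+VNS and 0 in every Sham+VNS library. Over the group that is at least 968-fold higher in CLP+VNS, against a floor of 3 counts for Sham+VNS (adjusted p = 2.10e-06). Its relatives Reg3b, with 18.9, 3.23, 28.1, 18.1 and 6.18 CPM, and Reg3a, with 9.62, 1.58, 13.3, 11.7 and 5.69 CPM, were likewise at 0 in all 5 Sham+VNS libraries, and were at least 344-fold and at least 194-fold higher in CLP+VNS. For each of the 3 genes CLP+VNS replicate 3 was the lowest and replicate 5 the highest library of its group. The Reg3 genes resemble each other in sequence, and how the counting divided reads between them is not stated in the sources used here, so their separate levels are uncertain.

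Of 21 tested members of the acute phase and host defence list, 17 rose and none fell, with a median log2 fold change of 2.65. Among these members the 2 groups did not overlap for 17, against 18.9% of all tested genes. Orm1, the plasma carrier alpha-1-acid glycoprotein, had 58.1, 7.10, 38.3, 43.8 and 19.2 CPM in CLP+VNS, against 0.844, 1.39, 0.206, 0.357 and 0.422 CPM in Sham+VNS (log2 fold change 5.67 ± 0.58 (SE), adjusted p = 1.47e-06). Lcn2, a siderophore-binding protein that withholds iron from bacteria, had 1368, 226, 445, 1044 and 1177 CPM in CLP+VNS and 86.4, 47.0, 1.37, 52.5 and 107 CPM in Sham+VNS (log2 fold change 3.86 ± 0.80 (SE), adjusted p = 0.00149). In both genes replicate 1 was the highest and replicate 3 the lowest of the CLP+VNS libraries, and Sham+VNS replicate 3 was the lowest of all 10. A2m, the protease inhibitor alpha-2-macroglobulin and a strong acute phase protein of the rat, had 136, 20.3, 68.6, 62.2 and 7.23 CPM in CLP+VNS and 0.633, 0.835, 0.549, 1.28 and 1.06 CPM in Sham+VNS (log2 fold change 6.06 ± 0.72 (SE), adjusted p = 7.29e-06), with replicate 1 the highest and replicate 11 the lowest CLP+VNS library and no overlap between groups. Saal1 had 211, 26.5, 149.7, 138 and 82.6 CPM in CLP+VNS and 1.90, 2.71, 3.16, 1.36 and 4.79 CPM in Sham+VNS (log2 fold change 5.44 ± 0.49 (SE), adjusted p = 4.84e-07).

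The fibrinogen genes, which encode the clot-forming protein of plasma, also rose. Fgg, the gamma chain, had 684, 173, 449, 416 and 244 CPM in CLP+VNS and 69.0, 62.2, 74.7, 86.9 and 87.7 CPM in Sham+VNS (log2 fold change 2.37 ± 0.31 (SE), adjusted p = 1.94e-05). Fga, the alpha chain, had 21.4, 1.51, 5.84, 9.91 and 2.88 CPM in CLP+VNS, while the Sham+VNS group had 3 counts in all, a ratio of 190 with a 95% Clopper-Pearson interval of 64.8 to 925 that covers counting error only. Its fitted log2 fold change, 7.35 ± 0.95, was 6.63 without CLP+VNS replicate 1 and 8.29 without Sham+VNS replicate 2. Lbp, which hands bacterial lipopolysaccharide to CD14, rose by 2.15 ± 0.24 on the log2 scale, and the haemoglobin-binding protein Hp by 2.46 ± 0.28. Cp, the copper-carrying ferroxidase ceruloplasmin, had a smaller change with a narrow spread, at 362 to 487 CPM in CLP+VNS and 191 to 224 CPM in Sham+VNS (log2 fold change 0.97 ± 0.09 (SE), adjusted p = 3.15e-07). Serpina3n, a serine protease inhibitor, was at 412, 19.0, 45.9, 49.3 and 29.6 CPM in CLP+VNS and 15.3, 3.62, 12.3, 0.571 and 14.9 CPM in Sham+VNS, and its log2 fold change of 3.57 ± 0.89 was 1.94 without CLP+VNS replicate 1. On the deposited TPM scale, which corrects for transcript length, Lcn2 averaged 2080.0 TPM in CLP+VNS, Hp 231, Saal1 435, Orm1 99.0 and Reg3g 103. The same genes averaged 150.3, 43.9, 10.4, 2.03 and 0 TPM in Sham+VNS.

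Cytokine genes moved in both directions. Tnf, the tumour necrosis factor gene, had 11.9, 8.18, 6.56, 12.7 and 17.9 CPM in CLP+VNS and 1.41, 1.32, 1.44, 1.86 and 3.17 CPM in Sham+VNS (log2 fold change 2.63 ± 0.25 (SE), adjusted p = 5.39e-07), with no overlap. Il1a rose by 2.08 ± 0.21 and Il1b by 0.97 ± 0.22 on the log2 scale (adjusted p = 1.04e-06 and 0.00325), and the groups overlapped for Il1b, at 39.1 to 76.0 CPM in CLP+VNS and 14.8 to 39.2 CPM in Sham+VNS. The interleukin-1 antagonist Il1rn and the decoy receptor Il1r2 rose with them, by 1.03 ± 0.18 and 2.79 ± 0.40. Il33, an alarmin stored in epithelial and stromal nuclei, fell to 261, 325, 325, 284 and 294 CPM in CLP+VNS, against 416, 393, 437, 538 and 421 CPM in Sham+VNS (log2 fold change -0.57 ± 0.10 (SE), adjusted p = 2.95e-04). In the whole list of 16 tested cytokine genes 6 were called higher and 3 lower, at a median of 0.17. Il6 was under the count filter, with 11 counts over the CLP+VNS group and 2 over the Sham+VNS group, a ratio of 5.52 with an interval of 1.20 to 51.2. An exact two-sided permutation test of the mean level gave p = 0.0159 for Il6 and 0.0714 for the anti-inflammatory cytokine Il10, or 0.111 and 0.25 after adjustment over the 7 low genes tested this way (n = 5 each). The smallest p that 5 against 5 libraries allow is 0.00794.

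Chemokine genes moved in both directions. Of 9 tested neutrophil chemokine and receptor genes 3 were called higher and 3 lower, at a median of 0.45. The summed level of the list was 345 to 365 CPM in CLP+VNS and 376 to 435 CPM in Sham+VNS. This list includes the stromal chemokine Cxcl12 and its receptor Cxcr4, both among those called lower, so the sum does not describe neutrophil attractants alone. Cxcl1, a neutrophil attractant, had 26.9, 48.3, 20.2, 22.4 and 24.6 CPM in CLP+VNS and 5.77, 5.43, 8.92, 7.50 and 10.3 CPM in Sham+VNS (log2 fold change 1.91 ± 0.33 (SE), adjusted p = 3.09e-04). Cxcl2 had 2.31, 5.17, 3.32, 6.99 and 6.11 CPM in CLP+VNS and 0.211, 0.209, 0.206, 0.214 and 0.282 CPM in Sham+VNS (log2 fold change 4.36 ± 0.40 (SE), adjusted p = 3.12e-07). Both act on the receptor Cxcr2, and for both every CLP+VNS library stood above every Sham+VNS library. Ccl2, a monocyte chemoattractant, had 3.43, 6.31, 7.93, 12.8 and 8.99 CPM in CLP+VNS and 0.914, 2.37, 1.24, 1.36 and 1.06 CPM in Sham+VNS (log2 fold change 2.50 ± 0.35 (SE), adjusted p = 3.38e-05). Ccl3 and Ccl12, also ligands of monocyte receptors, rose by 2.28 ± 0.25 and 2.54 ± 0.45, and the receptor Ccr1 by 1.07 ± 0.17. Of 22 tested chemokine genes of monocytes and lymphocytes 8 rose and none fell, with a median of 0.33 that was 0.49 without Sham+VNS replicate 5. The stromal chemokine Cxcl12, which holds leukocytes in tissue and marrow, and its receptor Cxcr4 went the other way. Cxcl12 had 35.0, 39.2, 55.6, 56.3 and 33.3 CPM in CLP+VNS and 102, 97.2, 78.9, 110.3 and 90.8 CPM in Sham+VNS (log2 fold change -1.13 ± 0.17 (SE), adjusted p = 7.32e-05), and Cxcr4 had a log2 fold change of -0.78 ± 0.13.

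NF-kappaB targets and Toll-like receptor genes rose in 17 of 30 tested members of their list and fell in none, with a median of 0.26. The inhibitor Nfkbia, itself an NF-kappaB target, had 385, 319, 328, 319 and 413 CPM in CLP+VNS and 119.5, 105, 95.05, 139 and 101.1 CPM in Sham+VNS (log2 fold change 1.66 ± 0.15 (SE), adjusted p = 3.99e-07). Tnfaip3, the ubiquitin-editing brake A20, had 43.9, 45.8, 47.6, 51.8 and 48.2 CPM in CLP+VNS and 22.9, 26.7, 24.5, 25.3 and 30.0 CPM in Sham+VNS (log2 fold change 0.87 ± 0.09 (SE), adjusted p = 2.10e-06). Neither gene overlapped between groups. The lipopolysaccharide co-receptor Cd14, the adaptor Myd88, the receptor Tlr2, the inhibitory kinase Irak3 and the mRNA-degrading nuclease Zc3h12a rose by 1.59, 0.71, 0.84, 1.52 and 1.22. The lipopolysaccharide receptor Tlr4 was not called, at 33.8 to 48.9 CPM in CLP+VNS and 29.4 to 39.0 CPM in Sham+VNS (adjusted p = 0.154).

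The promoters of 4 of these genes are printed to show the sequence that NF-kappaB dimers read, the 10-base kappaB consensus. Each stretch lies before the RefSeq transcription start in the GRCr8 assembly, on the strand of the gene, with the consensus in capitals wherever it was found on either strand. Overlapping matches form 1 longer run. These coordinates belong to GRCr8 and not to mRatBN7.2, the build named in the submitters' processing notes.
Cxcl1, chr14:17479370-17479430, minus strand, from 109 to 49 bases before the start: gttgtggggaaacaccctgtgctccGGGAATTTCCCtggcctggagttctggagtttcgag
Cxcl2, chr14:17467294-17467354, minus strand, from 99 to 39 bases before the start: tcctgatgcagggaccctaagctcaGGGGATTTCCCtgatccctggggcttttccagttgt
Nfkbia, chr6:78597073-78597128, minus strand, from 56 to 1 bases before the start: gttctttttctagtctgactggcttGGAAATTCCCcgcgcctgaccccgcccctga
Tnfaip3, chr1:15544000-15544059, minus strand, from 80 to 21 bases before the start: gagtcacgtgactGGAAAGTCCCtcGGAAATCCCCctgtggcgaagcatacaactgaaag
The consensus occurred in the 250 bases before the start of 9 of the 24 members of the NF-kappaB list that have 1 start in the table (37.5%), and in 3 of 8 neutrophil chemokine genes (37.5%). Over all 11083 tested genes with 1 start it occurred in 8.19%, in 9.70% of those called higher and in 8.59% of those called lower. It was found in none of the 11 cytokine genes in this window. A match describes these letters and was not tested as a binding site.

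Genes of the interleukin-6 and STAT3 response rose in 11 of 14 tested members and fell in none, with a median of 0.79. Socs3, the feedback inhibitor of the receptor, had 221, 195, 168, 179 and 186 CPM in CLP+VNS and 96.0, 67.0, 89.2, 76.7 and 82.8 CPM in Sham+VNS (log2 fold change 1.21 ± 0.18 (SE), adjusted p = 8.40e-05). Stat3 itself had 415, 371, 377, 411 and 365 CPM in CLP+VNS and 231, 235, 249, 239.8 and 234 CPM in Sham+VNS (log2 fold change 0.71 ± 0.07 (SE), adjusted p = 4.23e-07). Neither overlapped between groups. Il4r, Socs2 and the NF-kappaB cofactor Bcl3 rose by 1.13 ± 0.09, 1.64 ± 0.14 and 1.496 ± 0.14.

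Neutrophil genes rose, although not all of them. Of 24 tested members 16 were called higher and 1 lower, with a median of 0.94. In whole lung RNA, more cells of a type and more RNA per cell cannot be told apart. S100a8, a subunit of the granulocyte protein calprotectin, had 1036, 734, 602, 814 and 1633 CPM in CLP+VNS and 150.2, 153, 66.6, 134 and 150.5 CPM in Sham+VNS (log2 fold change 2.88 ± 0.32 (SE), adjusted p = 3.99e-06). Ngp, neutrophilic granule protein, had 8.95, 9.04, 2.81, 16.0 and 30.2 CPM in CLP+VNS and 0.0703, 0.626, 0.0686, 0.0714 and 0.0704 CPM in Sham+VNS (log2 fold change 6.13 ± 0.94 (SE), adjusted p = 9.43e-05), and its fold change was 7.41 without Sham+VNS replicate 2. CLP+VNS replicate 11 was the highest library for both. Mmp9, the gelatinase of neutrophil granules, and the formyl peptide receptor Fpr2 rose by 2.47 ± 0.41 and 2.56 ± 0.32. Cxcr2 and the collagenase Mmp8 were not called and overlapped widely, at 5.91 to 28.7 CPM in CLP+VNS and 2.68 to 14.3 CPM in Sham+VNS for Cxcr2 and at 9.66 to 69.3 CPM in CLP+VNS and 7.21 to 27.7 CPM in Sham+VNS for Mmp8 (adjusted p = 0.111 and 0.150), although Cxcr2 was called without Sham+VNS replicate 2 (adjusted p = 0.0408). Retnlg, a resistin-like protein of neutrophils, was the exception in direction, with 0.746, 0.430, 0.577, 0.642 and 3.02 CPM in CLP+VNS and 9.21, 8.70, 4.67, 6.57 and 6.83 CPM in Sham+VNS (log2 fold change -2.71 ± 0.43 (SE), adjusted p = 1.14e-04), and was lower still, at -3.57, without CLP+VNS replicate 11.

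The summed level of the neutrophil list was 2241 to 5604 CPM in CLP+VNS and 802 to 1305 CPM in Sham+VNS. Macrophage genes changed unevenly: 7 of 24 tested monocyte and macrophage genes rose, 2 fell and 15 were not called, with a median of 0.33. Adgre1, which encodes the macrophage surface protein F4/80, had 35.5, 76.1, 54.3, 44.3 and 47.8 CPM in CLP+VNS and 8.79, 8.77, 5.08, 9.85 and 8.73 CPM in Sham+VNS (log2 fold change 2.65 ± 0.25 (SE), adjusted p = 7.16e-07). Acod1, the enzyme that makes itaconate in activated macrophages, had 5.60, 6.53, 6.20, 9.84 and 15.2 CPM in CLP+VNS and 0.0703, 0.278, 0.0686, 0.0714 and 0.141 CPM in Sham+VNS (log2 fold change 6.01 ± 0.45 (SE), adjusted p = 7.53e-08). Both were higher in every CLP+VNS library. Itgam, the CD11b integrin of neutrophils and monocytes, Fcgr2b, the inhibitory Fc receptor, and Nos2, the inducible nitric oxide synthase, rose by 1.83 ± 0.25, 1.80 ± 0.19 and 1.65 ± 0.37. The colony-stimulating factor receptor Csf1r and the lipid receptor Trem2 fell, with log2 fold changes of -0.69 ± 0.11 and -1.60 ± 0.35. The general macrophage marker Cd68 was not called, at 31.5 to 67.8 CPM in CLP+VNS and 32.4 to 49.6 CPM in Sham+VNS (adjusted p = 0.737). Of 12 alveolar macrophage genes 3 were called higher and none lower. That share lies above the 13.9% of all tested genes called higher and below the 27.3% called in either direction. With the replicate number as a block, the count higher was 1. Among the 3 was the scavenger receptor Msr1, which rose by 0.89 ± 0.22. Pparg, the nuclear receptor that alveolar macrophages depend on, was not called (adjusted p = 0.319).

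**Figure D2:**
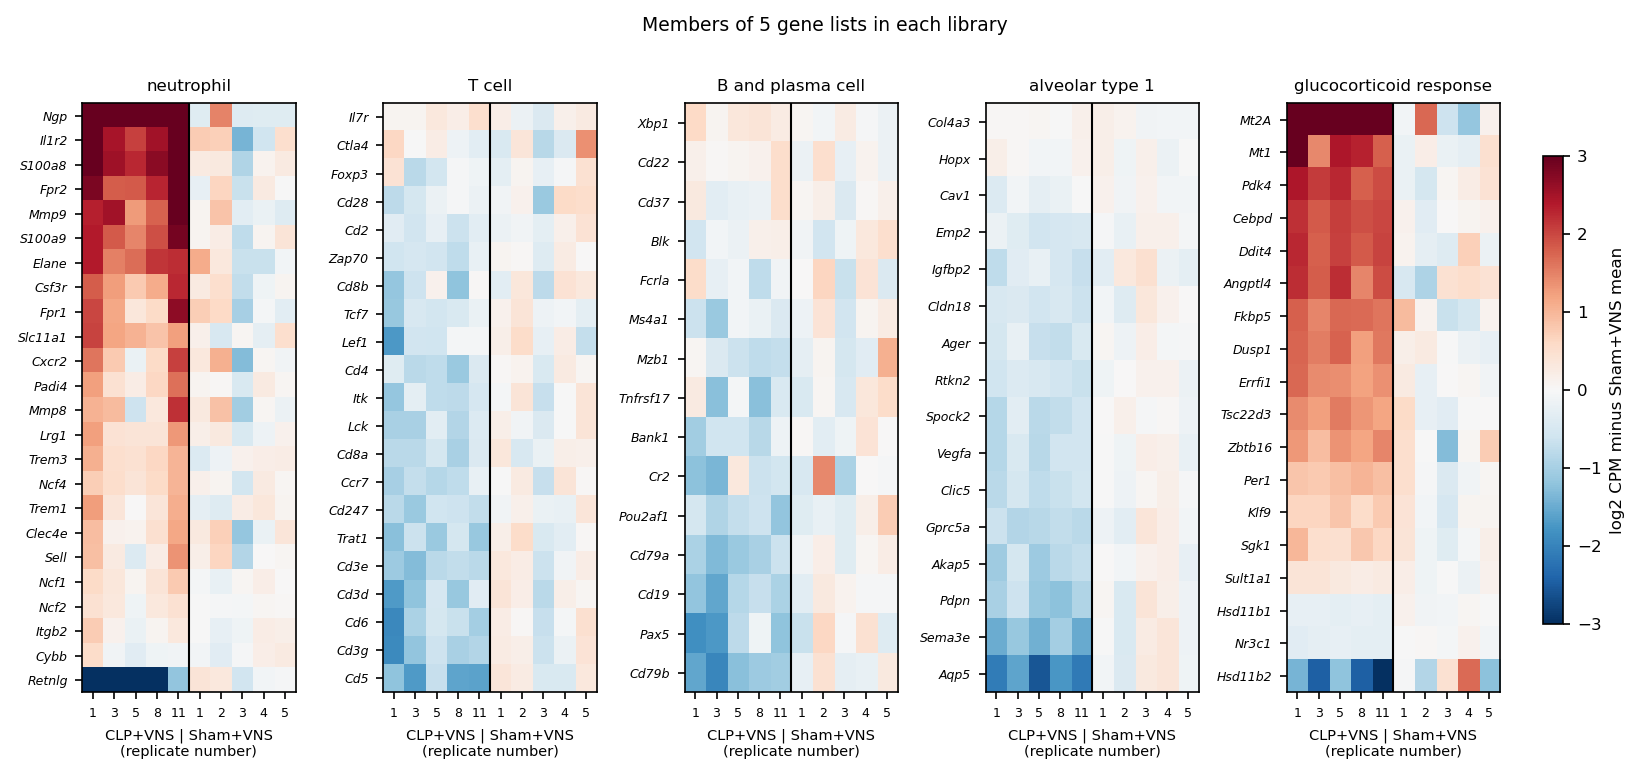
Log2 CPM of each tested member of 5 gene lists, minus the mean of the 5 Sham+VNS libraries, in the 5 CLP+VNS libraries (left of the line) and the 5 Sham+VNS libraries (right of it), with colour running from -3 (blue) to 3 (red). Neutrophil members are raised most in CLP+VNS replicates 1 and 11, T cell and alveolar type 1 members are lower across CLP+VNS, and 15 of 18 glucocorticoid members are raised.

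Many T cell genes and some B cell genes fell. Of 21 T cell genes 14 were called lower and none higher, at a median of -0.71. The groups overlapped for 17 of the 21 and did not for 4, near the 18.9% of all tested genes without overlap. Cd3e, a chain of the T cell receptor complex, had 2.98, 2.58, 3.68, 3.85 and 3.65 CPM in CLP+VNS and 8.16, 7.65, 4.12, 6.07 and 7.60 CPM in Sham+VNS (log2 fold change -1.002 ± 0.20 (SE), adjusted p = 7.48e-04). Cd5, a surface receptor that tunes T cell signalling, had 0.970, 0.646, 1.44, 0.713 and 0.702 CPM in CLP+VNS and 3.16, 2.92, 1.72, 1.71 and 3.03 CPM in Sham+VNS (log2 fold change -1.48 ± 0.29 (SE), adjusted p = 7.07e-04). In both, Sham+VNS replicate 3 was lower than most of its group. Cd247, another receptor chain, Lck, the first kinase of the receptor, and Cd8a also fell, with log2 fold changes of -0.80 ± 0.15, -0.71 ± 0.15 and -0.74 ± 0.18. Without Sham+VNS replicates 2 and 4 and CLP+VNS replicate 3, 7 T cell genes were called lower.

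Of 15 B and plasma cell genes 5 fell and 1 rose, with a median of -0.62 that was -0.30 without the same 3 libraries. Cd79a, a signalling chain of the B cell receptor, had 8.06, 6.17, 7.14, 7.91 and 9.97 CPM in CLP+VNS and 14.3, 17.8, 12.1, 16.2 and 18.3 CPM in Sham+VNS (log2 fold change -1.003 ± 0.22 (SE), adjusted p = 0.00222). Its partner Cd79b and the B cell scaffold Bank1 also fell, with log2 fold changes of -1.41 ± 0.34 and -0.64 ± 0.17. The pan-B cell gene Ms4a1 was not called, at 2.29 to 4.83 CPM in CLP+VNS and 3.36 to 6.82 CPM in Sham+VNS (adjusted p = 0.297). The member that rose, Xbp1, is also the transcription factor of the unfolded protein response and rose by 0.33 ± 0.09. Of 14 natural killer and cytotoxic genes 2 were called lower and none higher, at a median of -0.07. No member was free of overlap, while 18.9% of all tested genes were. The share called lower, 14.3%, is near the 13.4% of all tested genes. The count was 0 without CLP+VNS replicates 3 or 8 or Sham+VNS replicates 4 or 5 and 1 without Sham+VNS replicate 1. The cytotoxic granzyme Gzmb was not called (adjusted p = 0.685).

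MHC class II genes, which present antigen to helper T cells, were lower in part. Of 20 genes of class II and dendritic cells 6 fell and 2 rose. Cd74, the invariant chain that guards the class II groove, had 822, 725, 972, 724 and 782 CPM in CLP+VNS and 1093, 838, 1150.0, 1171 and 1246 CPM in Sham+VNS (log2 fold change -0.45 ± 0.10 (SE), adjusted p = 0.00175). Ciita, the master transactivator of class II genes, had 11.6, 10.5, 11.6, 14.0 and 12.4 CPM in CLP+VNS and 19.0, 17.7, 16.4, 19.1 and 18.0 CPM in Sham+VNS (log2 fold change -0.58 ± 0.10 (SE), adjusted p = 2.89e-04), with no overlap. RT1-Da, a rat class II alpha chain, had a log2 fold change of -0.47 ± 0.10, and reads of RT1 genes may be shared with near relatives. The list's median of -0.18 was -0.05 without Sham+VNS replicate 4. Clec9a, a receptor of cross-presenting dendritic cells, and the co-stimulator Cd80 rose by 0.44 ± 0.12 and 0.68 ± 0.20, but Clec9a was not called without Sham+VNS replicates 2 and 4 and CLP+VNS replicate 3 (adjusted p = 0.137).

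Of 30 interferon-stimulated genes, which answer to viral and bacterial signals, none was called higher. The count called lower was 4, or 13.3%, against 13.4% of all tested genes, and it was 2 without CLP+VNS replicate 1, CLP+VNS replicate 11 or Sham+VNS replicate 4 and 7 without CLP+VNS replicate 3. Ifi44 had 33.4, 45.9, 44.8, 34.1 and 33.1 CPM in CLP+VNS and 53.4, 55.2, 53.4, 61.1 and 50.6 CPM in Sham+VNS (log2 fold change -0.52 ± 0.12 (SE), adjusted p = 0.00330). Mx1, an antiviral GTPase, was not called, with 9.78, 27.5, 19.3, 11.2 and 12.1 CPM in CLP+VNS and 25.3, 32.2, 18.5, 37.8 and 22.7 CPM in Sham+VNS (adjusted p = 0.117), and the groups overlapped. It was called lower without CLP+VNS replicate 3 or Sham replicate 2 (adjusted p = 0.0360 and 0.0265).

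Complement genes rose in 12 of 24 tested members and fell in none, with a median of 0.65. C3, on which all complement pathways converge, had 385, 292, 465.8, 362 and 526.2 CPM in CLP+VNS and 236, 184, 164, 210.5 and 273 CPM in Sham+VNS (log2 fold change 0.93 ± 0.19 (SE), adjusted p = 0.00140). C7, a component of the membrane attack complex, had 1351, 1404, 2032, 1772 and 1199 CPM in CLP+VNS and 748, 794, 807, 718 and 649 CPM in Sham+VNS (log2 fold change 1.06 ± 0.14 (SE), adjusted p = 1.70e-05). Neither overlapped. Factor B (Cfb), properdin (Cfp) and the anaphylatoxin receptor C3ar1 rose by 1.41 ± 0.24, 0.76 ± 0.09 and 1.36 ± 0.14.

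In coagulation and fibrinolysis 7 of 17 tested genes were called higher and 1 lower, at a median of 0.21 that was 0.05 without CLP+VNS replicate 11. F3, tissue factor, the trigger of clotting, had 153, 173, 146, 137 and 139 CPM in CLP+VNS and 86.3, 84.4, 88.7, 88.7 and 79.4 CPM in Sham+VNS (log2 fold change 0.81 ± 0.07 (SE), adjusted p = 1.30e-07). Genes of plasminogen activation moved in both directions: the tissue plasminogen activator Plat and the urokinase receptor Plaur rose by 1.38 ± 0.17 and 1.37 ± 0.17, while urokinase itself, Plau, fell to 36.1, 26.2, 25.02, 24.4 and 20.8 CPM in CLP+VNS, against 36.4, 47.3, 51.5, 47.5 and 57.5 CPM in Sham+VNS (log2 fold change -0.86 ± 0.17 (SE), adjusted p = 8.61e-04). The anticoagulant thrombomodulin (Thbd) was not called (adjusted p = 0.803). Pf4, the platelet chemokine, was not called (adjusted p = 0.475), and 1 of 9 platelet genes rose, 11.1% against 13.9% of all tested genes.

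Endothelial genes were split, with 9 of 30 higher and 9 lower and a median of 0.00. Kdr, the main receptor for vascular endothelial growth factor, had 184, 291, 298, 286 and 316 CPM in CLP+VNS and 488, 569, 509, 411 and 393 CPM in Sham+VNS (log2 fold change -0.78 ± 0.15 (SE), adjusted p = 6.81e-04). S1pr1, a receptor that keeps the endothelial barrier tight, had 363, 366, 429, 338 and 419.9 CPM in CLP+VNS and 237, 189, 214, 178 and 183 CPM in Sham+VNS (log2 fold change 0.94 ± 0.08 (SE), adjusted p = 2.60e-07). The flow-responsive transcription factor Klf2, the tight junction gene Cldn5, the phosphatase Ptprb and the nitric oxide synthase Nos3 also rose, by 1.12, 0.78, 0.79 and 0.64. The adhesion gene Cdh5, the sialomucin Emcn and both angiopoietins, Angpt1 and Angpt2, were lower, with log2 fold changes of -0.35, -0.58, -0.74 and -1.19. The pan-endothelial genes Pecam1 and Vwf were not called (adjusted p = 0.863 and 0.303).

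The adhesion molecules that catch leukocytes did not move as 1 group. P-selectin (Selp) had 28.8, 28.1, 29.2, 26.4 and 21.1 CPM in CLP+VNS and 5.77, 5.63, 7.27, 9.35 and 7.46 CPM in Sham+VNS (log2 fold change 1.91 ± 0.21 (SE), adjusted p = 2.63e-06). E-selectin (Sele) rose by 1.88 ± 0.32. Icam1, the ligand of leukocyte integrins, which is also abundant on alveolar type 1 cells, had 282, 284, 260.3, 299 and 279 CPM in CLP+VNS and 440.3, 432, 539.9, 548 and 444 CPM in Sham+VNS, lower in every CLP+VNS library (log2 fold change -0.78 ± 0.09 (SE), adjusted p = 4.46e-06). Vcam1 was not called (adjusted p = 0.454).

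Genes of alveolar type 1 cells, the thin cells of gas exchange, fell in 12 of 16 tested members and rose in none, with a median of -0.60. The groups did not overlap for 11 of the 16, against 18.9% of all tested genes. Aqp5, their water channel, had 80.2, 115, 58.6, 103 and 80.0 CPM in CLP+VNS and 328, 258, 422, 443 and 314 CPM in Sham+VNS (log2 fold change -2.01 ± 0.21 (SE), adjusted p = 2.00e-06). Pdpn, podoplanin, had 344, 444, 310.1, 291 and 360.3 CPM in CLP+VNS and 705, 490.0, 891, 761 and 609 CPM in Sham+VNS (log2 fold change -0.98 ± 0.21 (SE), adjusted p = 0.00171). Ager had a smaller change, -0.52 ± 0.12. Sema3e, a guidance cue for vessels, and Vegfa, the vascular growth factor, fell too, with log2 fold changes of -1.33 ± 0.16 and -0.66 ± 0.10. Hopx and Cav1, also markers of these cells, were not called: Hopx was at 1070.0 to 1277 CPM in CLP+VNS and 996 to 1276 CPM in Sham+VNS (adjusted p = 0.865), and Cav1 had an adjusted p of 0.215.

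Genes of alveolar type 2 cells, which make surfactant, were mostly not called, with 2 of 20 lower, 2 higher (1 without Sham+VNS replicate 4) and a median of -0.07. The share called, 20.0%, was below the 27.3% of all tested genes. The surfactant protein genes Sftpa1 and Sftpd and the lipid transporter Abca3 had log2 fold changes of 0.10 ± 0.17, -0.08 ± 0.14 and -0.06 ± 0.09, none of them called. Nkx2-1, the lung lineage transcription factor, had 190.4, 190.4, 184, 187 and 185 CPM in CLP+VNS and 216, 210.2, 287, 242 and 222 CPM in Sham+VNS (log2 fold change -0.33 ± 0.07 (SE), adjusted p = 0.00219). Of 14 genes of alveolar fluid transport 6 rose and none fell, with a median of 0.35. The sodium pump subunit Atp1b1 rose by 0.88 ± 0.18, and the water channel Aqp1 of vessels by 0.59 ± 0.13. The epithelial sodium channel subunits Scnn1a, Scnn1b and Scnn1g were not called, with adjusted p of 0.812, 0.139 and 0.156.

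Of 23 junction genes 7 fell and 2 rose. Jup, plakoglobin, and Cldn18, the claudin of alveolar cells, fell, with log2 fold changes of -0.41 ± 0.07 and -0.54 ± 0.11. Jam2, a junctional adhesion molecule of endothelium, had 620.0, 625.2, 719, 610.0 and 686 CPM in CLP+VNS and 422, 426, 338, 267 and 328 CPM in Sham+VNS (log2 fold change 0.87 ± 0.11 (SE), adjusted p = 1.18e-05). Epithelial cadherin (Cdh1) and occludin (Ocln) were not called (adjusted p = 0.502 and 0.449). Few airway genes were called: 1 of 9 secretory and 1 of 12 ciliated genes were lower, 11.1% and 8.33% against 13.4% of all tested genes. Each call was lost without 1 Sham+VNS library (replicate 2 and replicate 3, in that order). The club cell gene Scgb1a1 had a log2 fold change of 0.11 ± 0.20.

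Matrix genes were lower in 9 of 22 tested members and higher in 3, with a median of -0.57. Loxl1, which cross-links elastin, had 5.22, 12.0, 7.43, 6.20 and 6.67 CPM in CLP+VNS and 29.9, 27.9, 61.2, 69.3 and 29.0 CPM in Sham+VNS (log2 fold change -2.53 ± 0.32 (SE), adjusted p = 1.39e-05). Its relative Lox, the founding lysyl oxidase, moved the other way, with 775, 755, 853, 596 and 719 CPM in CLP+VNS and 284, 410.0, 285, 212 and 308 CPM in Sham+VNS (log2 fold change 1.30 ± 0.15 (SE), adjusted p = 5.51e-06). Neither overlapped. Tnc, tenascin-C, and Fbn1, fibrillin-1, fell, with log2 fold changes of -2.0 ± 0.37 and -0.88 ± 0.16. Elastin (Eln) was not called, with 173 to 406 CPM in CLP+VNS and 259 to 894 CPM in Sham+VNS (adjusted p = 0.0791), but was called lower without CLP+VNS replicate 3 or Sham+VNS replicate 1 (adjusted p = 0.0420 and 0.0371). The fibroblast receptor Pdgfra rose by 0.94 ± 0.12. Of 13 smooth muscle and pericyte genes 4 were called lower, none higher and 9 were not called, with a median of -0.27. The share lower was 30.8%, against 13.4% of all tested genes, and the count was 2 without CLP+VNS replicate 1 or Sham+VNS replicate 1. Among those called lower were Mylk, the myosin light chain kinase of smooth muscle, and the pericyte gene Rgs5, with log2 fold changes of -0.68 ± 0.13 and -0.65 ± 0.16.

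Among the metalloproteinases and their inhibitors 6 of 15 rose and 1 fell (2 without Sham+VNS replicate 2). Timp1, an inhibitor of matrix metalloproteinases, had 508, 112, 323, 270.0 and 173 CPM in CLP+VNS and 23.1, 23.9, 25.9, 27.6 and 21.3 CPM in Sham+VNS (log2 fold change 3.51 ± 0.32 (SE), adjusted p = 5.25e-07). Adamts4, an aggrecan-cleaving protease, had 7.91, 6.89, 6.13, 5.70 and 6.60 CPM in CLP+VNS and 0.352, 0.139, 0.618, 0.4997 and 0.422 CPM in Sham+VNS (log2 fold change 4.00 ± 0.31 (SE), adjusted p = 8.31e-08). Timp2 was the member that fell, with a log2 fold change of -0.48 ± 0.08. The list's median of 0.21 was 0.57 without Sham+VNS replicate 4.

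All 18 tested genes of the glucocorticoid response were called, 15 higher and 3 lower, with a median of 1.37, while 27.3% of all tested genes were called. The members were chosen with earlier results of these data known. Fkbp5, a chaperone of the glucocorticoid receptor, had 415, 334, 397, 390.4 and 367 CPM in CLP+VNS and 234, 130.3, 76.0, 83.4 and 129.8 CPM in Sham+VNS (log2 fold change 1.54 ± 0.28 (SE), adjusted p = 4.33e-04). Tsc22d3, the anti-inflammatory protein GILZ, had 808, 713, 893, 760.0 and 692 CPM in CLP+VNS and 451, 254, 239, 301 and 306 CPM in Sham+VNS (log2 fold change 1.32 ± 0.19 (SE), adjusted p = 3.78e-05). In both genes Sham+VNS replicate 1 stood above the rest of its group, and no Sham+VNS library reached the CLP+VNS range. The metal-binding metallothionein Mt2A, which also responds to zinc and to interleukin-6, had 207, 43.4, 95.8, 162 and 70.3 CPM in CLP+VNS and 3.16, 11.3, 2.13, 1.43 and 3.66 CPM in Sham+VNS (log2 fold change 4.74 ± 0.52 (SE), adjusted p = 3.56e-06), and its fold change was 5.47 without Sham+VNS replicate 2. Cebpd, Pdk4 and Dusp1, a transcription factor, a brake on pyruvate dehydrogenase and a MAP kinase phosphatase, rose by 2.01 ± 0.15, 2.10 ± 0.23 and 1.57 ± 0.15. Nr3c1, the receptor itself, was lower, with 214, 225, 229.6, 220.5 and 220.5 CPM in CLP+VNS and 267, 278, 258, 294 and 257 CPM in Sham+VNS (log2 fold change -0.29 ± 0.04 (SE), adjusted p = 2.70e-05). Several of these genes also answer to cytokines, and which signal moved them was not tested.

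Immediate early genes rose in 10 of 18 tested members. Fos had 10.8, 8.46, 9.88, 8.34 and 10.7 CPM in CLP+VNS and 2.95, 3.69, 2.95, 2.85 and 2.60 CPM in Sham+VNS (log2 fold change 1.68 ± 0.17 (SE), adjusted p = 1.16e-06). Junb and Myc rose by 1.18 ± 0.12 and 0.70 ± 0.09. In the circadian clock 5 of 19 genes rose and 4 fell. Arntl, the core activator, had 57.2, 73.2, 41.5, 21.1 and 66.7 CPM in CLP+VNS and 10.5, 14.7, 20.4, 19.5 and 15.4 CPM in Sham+VNS (log2 fold change 1.69 ± 0.30 (SE), adjusted p = 3.50e-04). Dbp, an output gene of the clock, had 5.30, 5.17, 18.2, 57.4 and 8.92 CPM in CLP+VNS and 95.9, 77.6, 37.5, 63.8 and 83.0 CPM in Sham+VNS (log2 fold change -1.91 ± 0.57 (SE), adjusted p = 0.0180), and was at -2.93 without CLP+VNS replicate 8. Without Sham+VNS replicates 2 and 4 and CLP+VNS replicate 3 its call was lost (adjusted p = 0.0927). Replicate 8 had the lowest Arntl and the highest Dbp of the CLP+VNS libraries. The hour of tissue collection is not stated in the sources used here, and its part in these values was not tested. The 4 clock genes called lower were 2 without CLP+VNS replicates 1, 3 or 11 or Sham+VNS replicates 1 or 5.

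Genes of glucose uptake and glycolysis rose in part. Of 21 genes of hypoxia and glycolysis 11 rose and 1 fell. Slc2a3, a glucose transporter of leukocytes and neurons, had 81.3, 61.7, 42.3, 66.9 and 129.5 CPM in CLP+VNS and 19.4, 20.2, 13.2, 15.9 and 18.2 CPM in Sham+VNS (log2 fold change 2.13 ± 0.24 (SE), adjusted p = 3.48e-06). Pfkfb3, which makes the activator of phosphofructokinase, had 314, 255, 349, 309.9 and 295 CPM in CLP+VNS and 180.1, 134, 100.5, 148 and 135 CPM in Sham+VNS (log2 fold change 1.13 ± 0.14 (SE), adjusted p = 1.05e-05). The hypoxia factor Hif1a and the lactate enzyme Ldha were not called (adjusted p = 0.192 and 0.0779), and Ldha was called higher without CLP+VNS replicate 3 (adjusted p = 0.0112). Of 19 oxidative phosphorylation genes 2 were lower (1 without Sham+VNS replicate 1 or 4), 10.5% against 13.4% of all tested genes. Ndufb8, a subunit of complex I, had a log2 fold change of -0.31 ± 0.07.

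Stress genes rose in part. Of 17 genes of the unfolded protein response 11 rose and none fell, with a median of 0.41. Hspa5, the chaperone BiP, had 989.6, 480.4, 753, 844 and 639.7 CPM in CLP+VNS and 406, 418, 551, 428 and 335 CPM in Sham+VNS (log2 fold change 0.79 ± 0.16 (SE), adjusted p = 0.00112), and CLP+VNS replicate 3 overlapped the Sham+VNS range. Atf4 rose by 0.61 ± 0.06. Sod2, the mitochondrial superoxide dismutase, had 495, 317, 368, 514 and 520.3 CPM in CLP+VNS and 106, 102, 102, 119 and 128 CPM in Sham+VNS (log2 fold change 1.99 ± 0.12 (SE), adjusted p = 1.27e-08), while the secreted form Sod3 fell to 25.1, 35.7, 34.1, 24.7 and 27.6 CPM in CLP+VNS, against 53.3, 49.9, 61.0, 65.5 and 63.3 CPM in Sham+VNS (log2 fold change -0.99 ± 0.13 (SE), adjusted p = 1.99e-05). The cell cycle inhibitor Cdkn1a, a p53 target, had 156, 168, 135, 100.9 and 178 CPM in CLP+VNS and 35.6, 36.1, 40.1, 26.2 and 33.6 CPM in Sham+VNS (log2 fold change 2.10 ± 0.16 (SE), adjusted p = 8.31e-08). The pyroptosis genes Casp1 and Gsdmd were not called (log2 fold changes 0.11 ± 0.07 and -0.11 ± 0.09). Of 6 genes of metal binding and zinc transport 4 rose, among them the zinc importers Slc39a14 and Slc39a8, by 1.51 ± 0.22 and 1.60 ± 0.27.

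**Figure D3:**
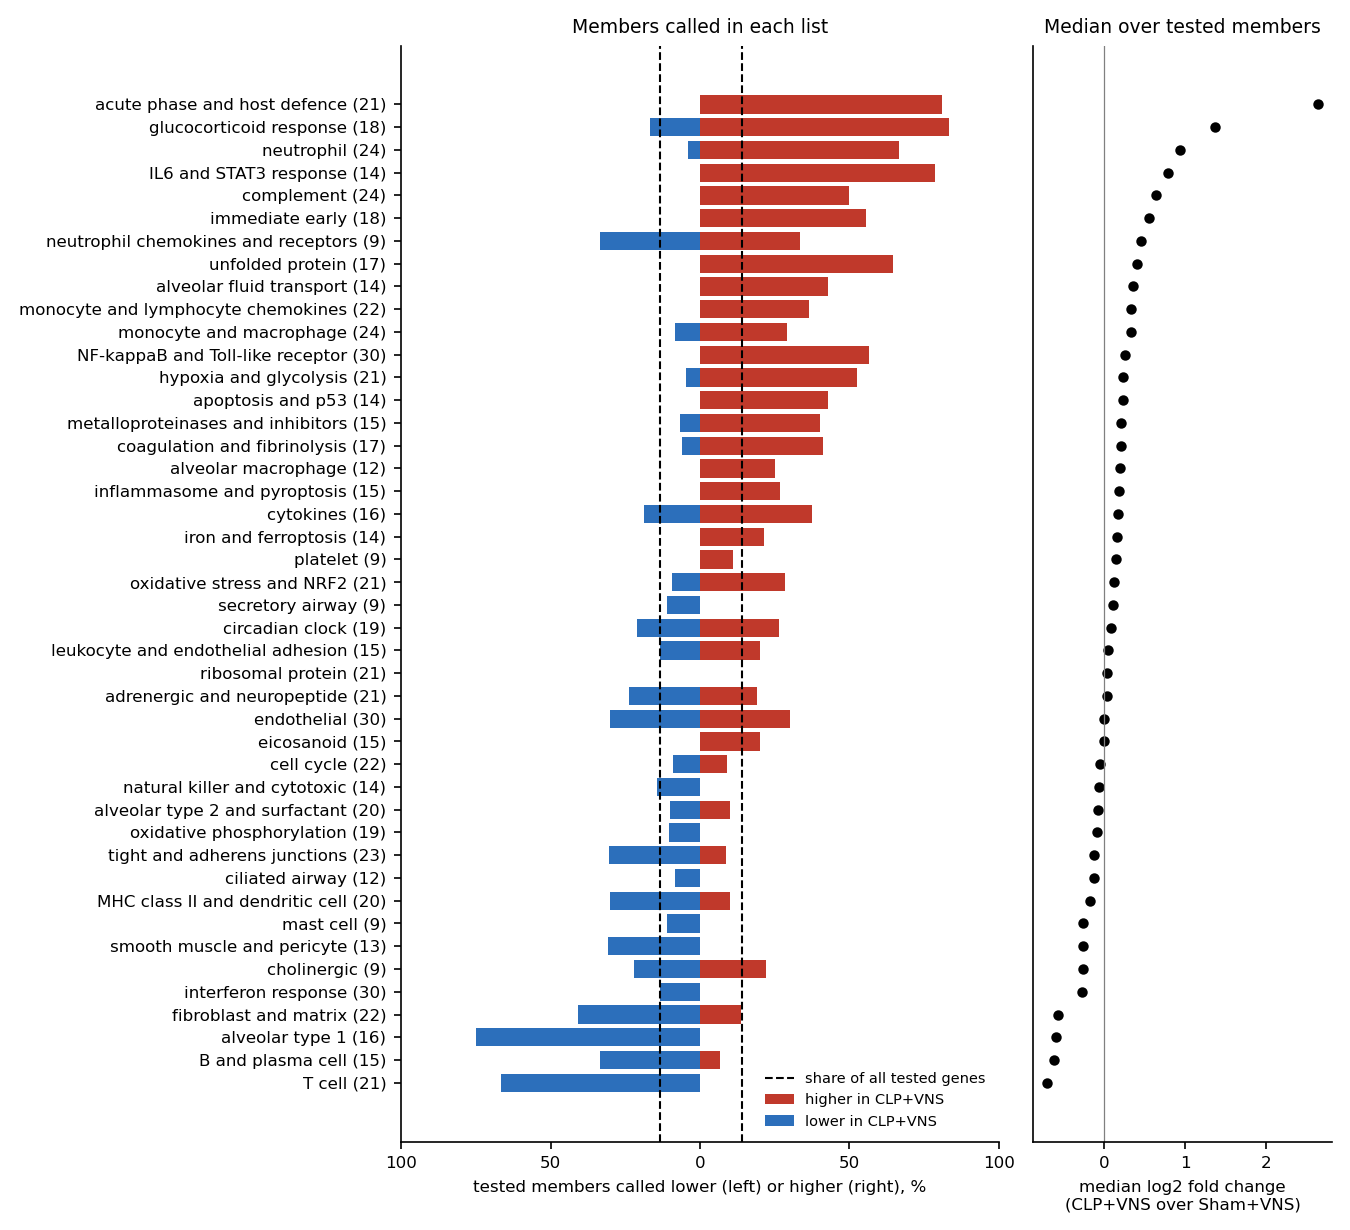
Share of tested members called higher (right, red) or lower (left, blue) in CLP+VNS for each gene list with at least 9 tested members, whose number stands in parentheses, and the median log2 fold change over the tested members. Dashed lines mark the shares of all tested genes, 13.9% higher and 13.4% lower; the acute phase list has a median of 2.65 and the T cell list one of -0.71.

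Receptors of vagal and sympathetic transmitters are described because the stimulated nerve releases acetylcholine. Chrna7 had 1.57, 2.65, 1.95, 3.85 and 2.18 CPM in CLP+VNS and 0.352, 1.18, 0.618, 0.4997 and 0.563 CPM in Sham+VNS (log2 fold change 1.91 ± 0.36 (SE), adjusted p = 6.09e-04), low in all libraries and without overlap. Chrna4, another nicotinic subunit, had 0.149, 0.215, 0.288, 0.214 and 0.140 CPM in CLP+VNS and 1.90, 1.32, 1.24, 1.36 and 1.13 CPM in Sham+VNS (log2 fold change -2.73 ± 0.40 (SE), adjusted p = 5.48e-05). The muscarinic receptor Chrm3 and the acetylcholine-degrading enzyme Ache were not called (adjusted p = 0.284 and 0.280). Of 9 tested cholinergic genes 2 rose, Chrna7 and the kinase Jak2 that acts below it, and 2 fell. The second of those, the muscarinic receptor Chrm2, had an adjusted p of 0.0402 (0.00159 to 0.118 over the alternatives) and was not called without CLP+VNS replicates 1, 5, 8 or 11 or Sham+VNS replicates 1, 3, 4 or 5; its log2 fold change of -1.18 ± 0.41 was -1.80 without CLP+VNS replicate 3. The adrenergic receptors Adrb1 and Adra1a were lower, with log2 fold changes of -1.11 ± 0.20 and -0.97 ± 0.21. Tacr1, the substance P receptor, had 8.95, 10.0, 4.25, 3.14 and 1.47 CPM in CLP+VNS and 0.492, 0.487, 0.412, 0.143 and 0.634 CPM in Sham+VNS (log2 fold change 3.65 ± 0.79 (SE), adjusted p = 0.00180). Whether vagal stimulation has a part in these levels cannot be told from these 2 groups alone, as both were stimulated. In the unstimulated animals, CLP against Sham, 3 of the 9 cholinergic genes were called higher and 2 lower. The responses with and without stimulation are set against each other below, that of Chrna7 among them.

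Of 15 tested genes of lipid mediators (eicosanoids) 3 were called higher and none lower, with a median of -0.0025. That is 20.0%, against 13.9% of all tested genes called higher and 27.3% called in either direction. Pla2g2a, a secreted phospholipase that attacks bacterial membranes, had 223, 82.2, 197, 153 and 28.0 CPM in CLP+VNS and 8.44, 21.1, 5.63, 15.6 and 3.17 CPM in Sham+VNS (log2 fold change 3.66 ± 0.84 (SE), adjusted p = 0.00315). The leukotriene pathway protein Alox5ap rose by 0.96 ± 0.15, while Ptgs2, the inducible cyclooxygenase, was not called (adjusted p = 0.441).

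The lowest p of the whole comparison belonged to Arl4a. Arl4a, a small GTPase of the ARF family, had 113, 79.7, 109, 91.5 and 93.8 CPM in CLP+VNS and 31.2, 32.0, 27.7, 32.1 and 33.6 CPM in Sham+VNS (log2 fold change 1.64 ± 0.10 (SE), adjusted p = 1.26e-08). After Arl4a and Sod2, the lowest p among genes that rose belonged to Arl5b, Arrdc3 and Cblb, a ubiquitin ligase that restrains lymphocytes, with log2 fold changes of 0.90 ± 0.06, 1.55 ± 0.11 and 1.02 ± 0.08. Among genes that fell it belonged to Flrt3, an adhesion protein, with 59.4, 75.7, 70.9, 68.7 and 60.2 CPM in CLP+VNS and 145, 159, 143, 175 and 149.6 CPM in Sham+VNS (log2 fold change -1.21 ± 0.09 (SE), adjusted p = 8.31e-08). Next came the growth factor Pdgfb, the adhesion scaffold Nedd9, the Toll-like receptor accessory protein Tril and the focal adhesion protein Tns3, with log2 fold changes of -1.40 ± 0.11, -1.14 ± 0.09, -1.32 ± 0.11 and -1.18 ± 0.10. None of these 10 genes overlapped between groups.

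Among the 10 lowest fold changes, Gpm6a, a membrane glycoprotein, had 17.9, 21.5, 10.2, 8.198 and 3.44 CPM in CLP+VNS and 68.1, 62.0, 75.2, 121 and 92.9 CPM in Sham+VNS (log2 fold change -2.77 ± 0.44 (SE), adjusted p = 1.36e-04). Cntn2, an adhesion molecule of the immunoglobulin family, had 2.46, 5.59, 1.95, 4.78 and 2.81 CPM in CLP+VNS and 34.8, 29.9, 17.7, 21.0 and 20.6 CPM in Sham+VNS (log2 fold change -2.81 ± 0.29 (SE), adjusted p = 1.41e-06). Each of these was lower in all 5 CLP+VNS libraries. Cct6b, Igfbpl1, Krt4, Nptx1 and the phosphodiesterase Pde1b had log2 fold changes of -3.31 ± 0.31, -2.97 ± 0.39, -2.79 ± 0.29, -2.51 ± 0.32 and -2.45 ± 0.54. Ly6al, of the Ly6 family, had the lowest value, -6.97 ± 1.96, but its Sham+VNS libraries read 1.27, 24.8, 105, 1.07 and 117 CPM, with replicates 1 and 4 close to the CLP+VNS libraries at 0.373, 0.287, 0.433, 0.214 and 0.632 CPM. Its fold change was -6.38 without Sham+VNS replicate 5 and its call was absent in limma-voom. On the higher side Pmp2, a fatty acid-binding protein of myelin, had 3.73, 3.37, 7.43, 14.0 and 4.35 CPM in CLP+VNS and 0, 1.04, 0, 0.0714 and 0 CPM in Sham+VNS, and its log2 fold change of 4.82 ± 1.16 was 7.96 without Sham+VNS replicate 2.

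The response under stimulation was then set against the response without it, CLP against Sham, in 10 other animals. Under stimulation 4044 genes were called, and without it 5955 (40.3%). Of the calls under stimulation 83.0% were also called without it, and of the calls without it 56.3% were also called under stimulation. Those 3355 shared genes moved in the same direction in 3353 cases. Over the genes called without stimulation, the median size of the log2 fold change was 0.30 under stimulation and 0.45 without it. The slope of the stimulated on the unstimulated log2 fold change over those genes was 0.75, and Pearson's r over all 14794 genes was 0.830 and Spearman's rho 0.760, a description across genes that are not independent replicates. The genes behind the slope and the median sizes were chosen by their calls without stimulation, which favours larger fold changes on that side. The median SE over all tested genes was 0.10 in both comparisons, which came from 1 fit with a shared estimate of the spread.

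No gene passed the test of the difference itself. In edgeR the interaction, the response under stimulation minus the response without it, had 0 calls, a lowest adjusted p of 0.5004, and 1217 genes at an unadjusted p below 0.05 (8.23%). DESeq2 called 6, and edgeR called 3 without CLP+VNS replicate 1. The 5 genes of lowest p averaging at least 1 CPM were Cep55, a protein of cell division, Cpne7, RT1-Da, Ccdc28a and Sptssa, a subunit of the enzyme that starts sphingolipid synthesis. Cep55 had 2.69, 3.66, 1.95, 2.07 and 2.25 CPM in CLP+VNS, 1.90, 1.88, 5.28, 2.43 and 3.38 in Sham+VNS, 3.22, 3.60, 6.73, 6.59 and 7.13 in CLP and 1.34, 1.82, 1.74, 1.90 and 0.760 in Sham. The interaction of Cep55 was -2.08 ± 0.45 on the log2 scale (unadjusted p = 1.84e-04). RT1-Da had a log2 fold change of -0.47 ± 0.10 under stimulation and 0.15 ± 0.10 without it, a difference of -0.62 ± 0.14 (unadjusted p = 2.52e-04).

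The cell cycle list differed most in count between the 2 comparisons. Under stimulation 2 of its 22 tested genes were called higher and 2 lower, at a median of -0.05. Without stimulation 15 rose and 2 fell, with a median of 0.88. An unadjusted interaction p below 0.05 was found for 14 of the 22 genes, and none passed adjustment. Mki67, the proliferation marker, had 19.2, 24.4, 17.4, 18.2 and 19.0 CPM in CLP+VNS, 12.0, 15.7, 34.6, 18.8 and 27.9 in Sham+VNS, 22.8, 22.1, 43.7, 39.6 and 42.6 in CLP and 14.8, 18.7, 20.3, 20.5 and 12.2 in Sham. Sham+VNS replicates 3 and 5 lay above all 5 CLP+VNS libraries, and CLP replicates 4, 5 and 6 lay above every library of the other 3 groups. Top2a, the topoisomerase of dividing cells, had a log2 fold change of -0.08 ± 0.36 under stimulation and 1.33 ± 0.36 without it (unadjusted p = 0.0127 for the interaction). The genes of the list share cells and libraries and are not independent of each other.

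**Figure D4:**
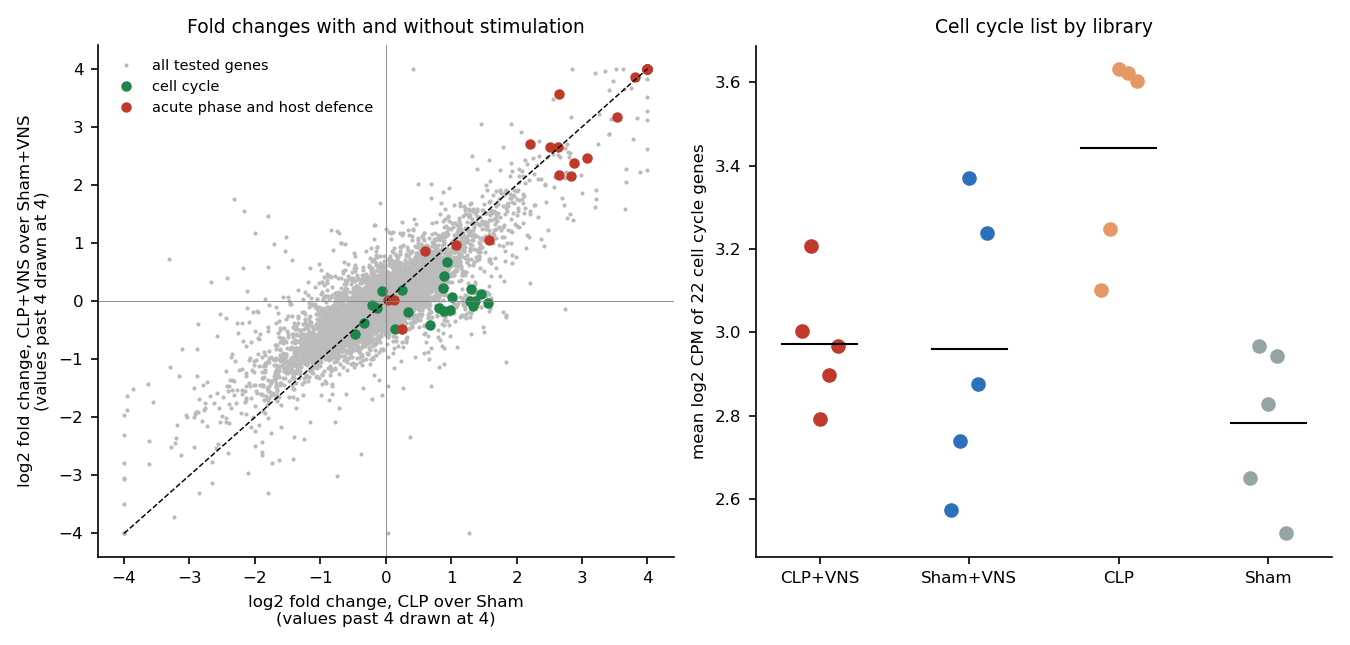
Left, log2 fold change of CLP+VNS over Sham+VNS (vertical) against that of CLP over Sham (horizontal) for all tested genes (grey). Values past 4 are drawn at 4, and the line of equality is dashed. Acute phase genes (red) have a median of 2.65 on both axes, and those past 4 on both are drawn on the line. Cell cycle genes (green) have medians of -0.05 (vertical) and 0.88 (horizontal). Right, mean log2 CPM of the 22 cell cycle genes in each library, with a bar at the group mean; the CLP+VNS libraries span 2.79 to 3.21, Sham+VNS 2.57 to 3.37, CLP 3.10 to 3.63 and Sham 2.52 to 2.97.

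Some lists had equal counts of calls in both comparisons. The acute phase list had 17 members higher in each, with medians of 2.65 under stimulation and 2.65 without it. The alveolar type 1 list had 12 members lower in each, with medians of -0.60 and -0.50, and the glucocorticoid list 15 higher and 3 lower in each, with medians of 1.37 and 1.11. Several other lists had more calls without stimulation, as had all tested genes, with 40.3% called without it and 27.3% under it. Neutrophil genes rose in 16 of 24 under stimulation and in 23 of 24 without it, with medians of 0.94 and 1.57, and 4 of them had an unadjusted interaction p below 0.05. Among NF-kappaB genes the counts higher were 17 under stimulation and 24 without it, of 30, and among interferon-stimulated genes the counts lower were 4 and 12 of 30. Matrix genes were lower in 9 and 15 of 22 and endothelial genes in 9 and 14 of 30. Unfolded protein response genes were higher in 11 and 16 of 17. Some counts were larger under stimulation: class II and dendritic cell genes were lower in 6 and 3 of 20, and endothelial genes higher in 9 and 7 of 30. These counts were not tested against each other. For Nfkbia the order was reversed, with a log2 fold change of 1.66 ± 0.15 under stimulation and 1.05 ± 0.15 without it (unadjusted p = 0.00901 for the interaction), and likewise for Klf2, 1.12 ± 0.17 and 0.40 ± 0.17 (unadjusted p = 0.00801). Chrna7 rose by 1.91 ± 0.36 under stimulation and 1.84 ± 0.38 without it (unadjusted p = 0.904). No difference for these genes passed adjustment.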

How the data were processed

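Total RNA of rat lung was sequenced in 20 libraries, 5 in each of CLP+VNS, Sham+VNS, CLP and Sham, grouped by the treatment labels. The authors' deposited table gives, per the file headers, an estimated count of reads and a TPM value for 19060 genes in each library; 91.5% of the count values are whole numbers. The estimated counts were made by the authors from reads mapped to mRatBN7.2, per the submitters' processing notes. The aligner, the counter, its annotation and its use of strand are not stated in the sources used here. The deposited TPM values are scaled by transcript length and were used only to compare levels between genes. A deposited transcript table was not used.

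The expected counts were rounded to whole numbers, filtered with filterByExpr at a minimum count of 10, which left 14794 genes, and scaled with TMM. A model with 1 mean per group was fitted to all 20 libraries with edgeR 4.0.16 in R 4.3.3 (glmQLFit with robust fitting, 16 residual degrees of freedom and a common BCV, the biological coefficient of variation, of 0.161), and contrasts were tested with glmQLFTest and Benjamini-Hochberg adjustment over all tested genes. The interaction is CLP+VNS minus Sham+VNS, minus the same difference of CLP and Sham. Of the 53 gene lists, 853 distinct genes are in the table, 4 of them under another symbol. Lists are described by counts and medians beside all tested genes, with no set test. Members and lists were chosen with earlier results of these data known. The genes named were taken from the 10 highest and 10 lowest log2 fold changes of called genes that averaged 1 CPM or more and did not overlap, the 5 lowest p in each direction, the 5 lowest interaction p, marked key members of the lists and, per list, up to 3 further called members in each direction by p. Key genes under the filter were tested by exact permutation. The floor of 3 counts and the 95% Clopper-Pearson intervals cover counting error only.

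Promoter sequences are RefSeq's in the GRCr8 assembly, 250 bases before the start, and were searched on both strands for the kappaB consensus. Alternatives were DESeq2 1.42.0, limma 3.58.1 (voom), library totals, DESeq2 size factors, other filters, a replicate block, the 2 groups alone and each library left out in turn. The fits were tested on simulated data. Python 3.11.15, pandas 2.3.3, scipy 1.17.1 and matplotlib 3.10.9 were used for summaries and figures.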

Additional observations from a re-analysis of the deposited data

Results flagged for a closer look

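In 180 sets of 5 libraries examined (list sums, the first principal components and the genes of extreme fold change or lowest p, in both groups), 13 held a library whose gap to its nearest neighbour was large for the range of its group; chance gives about 1 in 20 such sets. Among list sums in CLP+VNS, coagulation and fibrinolysis reached 3889 CPM in replicate 11, against a median of 3311. Ciliated airway genes summed to 567 CPM in replicate 3, against a median of 396, and the cardiac muscle genes to 34.2 CPM in the same library. Iron and ferroptosis genes summed to 5037 CPM in replicate 1, against a median of 4075. Among single genes of CLP+VNS, Retnlg stood high in replicate 11 at 3.02 CPM and Pdgfb low in replicate 1 at 23.8 CPM.

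In Sham+VNS, replicate 3 was lowest for the neutrophil sum, at 802 CPM with a median of 1208, and for the T cell sum, at 131 CPM with a median of 189. Replicate 4 was highest for the cytokine sum, at 758 CPM, and for Arrdc3, at 390.3 CPM. Replicate 1 was highest for the sum of apoptosis and p53 genes, at 954 CPM. Replicate 2 was highest for Ngp, at 0.626 CPM, and for Pmp2, at 1.04 CPM, with every other Sham+VNS library of both genes below 0.1 CPM. What sets these libraries apart was not tested.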

How the results depend on the processing

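The 4044 calls became 4323 in DESeq2, 3997 in limma-voom, 4036 with DESeq2's size factors, 4004 at a mean of at least 1 CPM, 3809 with no count filter, 3748 with the 2 groups alone and 3377 to 4217 with each library left out in turn. Scaling by library totals gave 4103 calls, split 1697 higher and 2406 lower, and a median log2 fold change over all genes of -0.04. Replicate numbers 1, 3 and 5 occur in both groups, and the deviations of same-numbered libraries had correlations of -0.07, 0.01 and 0.01. Pairs of unlike number ran from -0.15 to 0.18. So few pairs cannot show whether libraries of the same number share more than the number. With the number as a block, 2109 genes were called, 1135 higher and 974 lower, and 749 had an unadjusted interaction p below 0.05, against 1217. Numbers 8 and 11 (CLP+VNS) and 6 (CLP) each mark 1 library, so their block terms take those libraries out of the contrasts. The lower counts therefore come from fewer libraries as well as from blocking. The interaction had 6 calls in DESeq2 (2 higher, 4 lower) and, over the libraries left out in turn, 0 to 3 calls (0 to 2 higher, 0 to 1 lower), the 3 being without CLP+VNS replicate 1. Why the interaction calls differed was not tested.

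Of 199 tested genes named in the text, 160 were called, and 143 of these were called in all 29 alternatives. The block lost 16, and leaving out 1 library lost only Chrm2. Of the 39 uncalled genes 7 were called in some alternative. Changes of sign were seen only in uncalled genes. Leaving out Sham+VNS replicates 2 and 4 and CLP+VNS replicate 3 gave Adipoq 0.57, Hopx -0.0687 and Scgb1a1 -0.00494. With 1 library left out at a time, the log2 fold changes ran from -0.12 to 0.19 for Cd68, -0.41 to 0.0732 for Cep55, -0.0118 to 0.0768 for Hopx, -0.31 to 0.0751 for Mki67, -0.0721 to 0.0697 for Pecam1, -0.0130 to 0.21 for Scgb1a1, -0.0168 to 0.11 for Thbd and -0.29 to 0.29 for Top2a. The block gave Top2a 0.20 and Vwf -0.0101, limma-voom gave Top2a 0.0618 and library totals gave Hopx -0.00106.

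Without those 3 libraries, counts of list members moved by over 1.5 times for genes called lower among cytokines (1), T cells (7), B cells (3), natural killer cells (0), adhesion (1), endothelium (5), matrix (5), the clock (0) and adrenergic and neuropeptide genes (3), and for genes called higher among MHC class II (1), alveolar type 2 (1), fluid transport (3) and cell cycle (1) genes. The fitted log2 fold changes became 10.1 for Fga, 9.69 for Pmp2, 7.53 for Ngp, 6.32 for Orm1, 5.48 for Mt2A and 4.70 for Pla2g2a. In limma-voom they were 6.53 for Fga, 6.04 for Pmp2, 9.91 for Reg3g, 8.34 for Reg3b, 7.58 for Reg3a, 5.47 for A2m and 4.48 for Lcn2.

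Depth limits the genes under the count filter, such as Il6, which had 11 counts over CLP+VNS and 2 over Sham+VNS.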
